A study of Mus musculus with 12 samples.

Results

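The genes that encode collagen chains were followed in the colon of mice with dextran sulfate sodium (DSS) colitis, with and without supplementation with the amino acid L-arginine (L-Arg). All gene symbols of the array made of Col, a type number, the letter a and a chain number were taken, from probe sets assigned to exactly 1 gene and with the brightest probe set where a gene had more than 1. This gave 44 collagen genes of 19938 genes measured, of which 11 encode fibrillar chains, 8 encode chains of basement membranes and 25 encode other collagens. Col6a5 and Col6a6 each had 2 probe sets, and Col21a1 was not measured.

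The 12 mice were male wild-type C57BL/6 animals, 7 weeks old at the start and 8 weeks and 3 days old when killed on day 10. Control mice drank water throughout, and control+L-Arg mice received 1% L-Arg for the last 4 days. DSS mice drank 4% DSS for 6 days and plain water afterwards until day 10. In the DSS+L-Arg group, the same 6 days of DSS were followed by 4 days of 1% L-Arg. Each group had 3 mice with 1 array each, and precision is limited by that number. The labels name a piece of colon, and the study's general methods describe 1 proximal and 1 distal piece combined for RNA, without saying whether this holds for the array samples. DSS injures the colonic epithelium from the lumen, and the 4 days after its removal are a period of repair. Values are log2 signals, on which a difference of 1 is a doubling, and levels were compared between groups for the same probe set but never between genes.

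Collagens are proteins of 3 chains wound into a triple helix. Fibrillar collagens form the tensile fibrils of the submucosa and lamina propria and are made mainly by fibroblasts and, in muscle layers, by smooth muscle cells. Basement membrane collagens form the sheet-like network under epithelium and around vessels and muscle cells, while other collagens link fibrils together, anchor epithelium, span the cell membrane or form fine filaments. Chains need hydroxylation, folding, trimming and cross-linking by dedicated enzymes, and matrix metalloproteinases and uptake receptors remove the finished protein.

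Among the collagens, Col18a1 and Col4a1 were higher in DSS than in control colon, and Col18a1 was lower in DSS+L-Arg than in DSS colon. Both encode basement membrane chains. No fibrillar collagen gene passed the test in any comparison, although the mean signals of Col1a1, Col1a2 and Col3a1 in DSS mice exceeded the control means by 0.52 to 0.66. Col8a1 differed most in the opposite direction, by -1.01 between DSS and control, and did not pass the test. Genes were tested with limma with p-values adjusted by Benjamini and Hochberg's method across the 19938 genes, and a gene was called below 0.05.

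In DSS versus control, 2 of the 44 collagen genes were called higher, beside 1.8% of all genes, and 0 were called lower, beside 2.23% of all genes. At an unadjusted p under 0.05, 5 were higher by limma, beside 7.96% of all genes, and 2 were lower, beside 11.6%. By Significance Analysis of Microarrays (SAM), the method of the study, 7 passed at that threshold, beside 17.6% of all genes. After adjustment SAM called 0 of all 19938 genes. SAM compares the data with reassignments of the mice to the groups. With so few mice per group, these are too few for any gene to reach an adjusted p under 0.05. The SAM count after adjustment was thus fixed in advance and does not bear on the limma calls. In 7 collagen genes all DSS mice lay above all control mice, beside 10.7% of all genes. In 2, Col8a1 and Col20a1, all DSS mice lay below all control mice, a direction not counted over all genes. The call of Col4a1 lay close to the threshold.

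**Figure D1:**
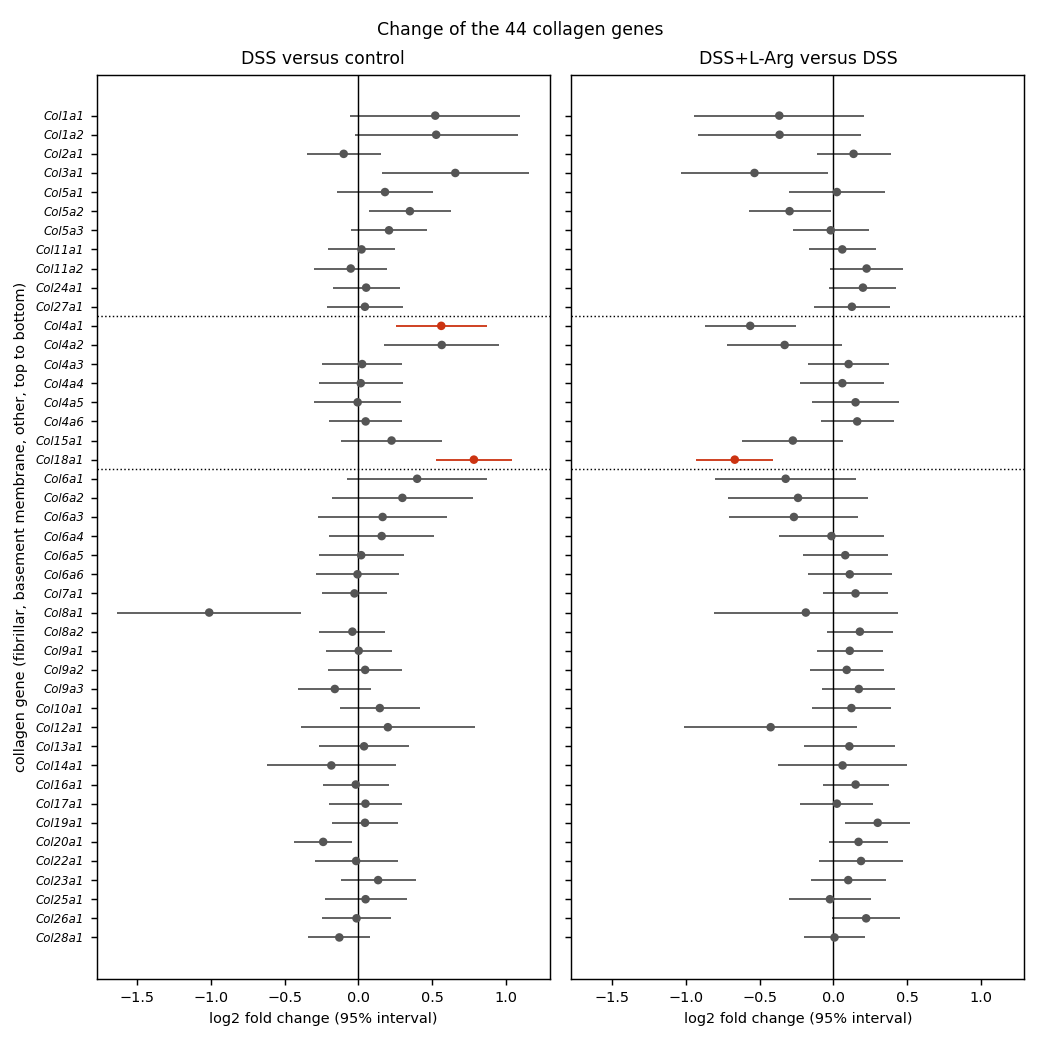
Log2 fold change of each collagen gene, with its 95% interval from limma, in DSS versus control (left) and DSS+L-Arg versus DSS (right). Genes are ordered as fibrillar, basement membrane and other, separated by dotted lines, and red marks an adjusted p under 0.05. Red points are Col4a1 and Col18a1 on the left and Col18a1 on the right.

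Col18a1 encodes the chain of type XVIII collagen, a heparan sulfate proteoglycan of epithelial and vascular basement membranes whose end fragment is endostatin. The control mice had signals of 7.08, 7.06 and 6.99, the DSS mice 7.79, 8.07 and 7.63, the DSS+L-Arg mice 7.10, 7.24 and 7.14, and the control+L-Arg mice 7.04, 7.03 and 7.31. All 3 DSS mice stood above the other 9 mice. The mean was 7.04 ± 0.05 (SD, n = 3) in control and 7.83 ± 0.22 (SD, n = 3) in DSS, a log2 fold change of 0.78 (SE 0.12, limma adjusted p = 0.00623). DSS was also higher than control+L-Arg, by 0.70 (SE 0.12, limma adjusted p = 0.0146), where Col18a1 was the 1 collagen gene called, beside 3.68% of all genes. This last call was lost without control+L-Arg mouse 1 (adjusted p = 0.0649). With only DSS and control mice in the fit, the adjusted p for DSS versus control was 0.0574.

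With L-Arg after DSS, Col18a1 was lower than in DSS alone, with a log2 fold change of -0.67 (SE 0.12, limma adjusted p = 0.0359). This comparison and that of DSS with control share the DSS mice. The DSS+L-Arg mean of 7.16 ± 0.07 (SD, n = 3) lay 0.11 above the control mean, a difference that did not pass the test (limma adjusted p = 0.718). The call of DSS+L-Arg versus DSS was lost when 1 mouse was left out in 8 of 12 cases, namely any control mouse (adjusted p 0.0573 to 0.0645), any DSS+L-Arg mouse (0.112 to 0.152), control+L-Arg mouse 1 (0.0594) or DSS mouse 2 (0.0643). The fold change over all alternatives ran from -0.81 to -0.55.

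Because Col18a1 was the collagen gene called in both directions, the 250 bases before its annotated starts are shown, from RefSeq on GRCm38.p6 in the 5′ to 3′ direction of the gene. Both starts are on the minus strand of chromosome 10, the upstream one with bases chr10:77166531-77166780 and the downstream one with bases chr10:77113706-77113955. Capitals mark, on either strand, GGGCGG (the GC box that Sp1 can bind), CCAAT (the CCAAT box), CAGAC (a short element that SMAD proteins can bind) and TATAAA (the TATA box).
Col18a1, upstream start: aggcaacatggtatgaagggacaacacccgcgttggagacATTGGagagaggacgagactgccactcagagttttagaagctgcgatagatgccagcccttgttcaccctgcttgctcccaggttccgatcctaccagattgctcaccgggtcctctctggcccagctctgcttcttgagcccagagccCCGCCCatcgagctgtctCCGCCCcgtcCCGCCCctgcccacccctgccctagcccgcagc
Col18a1, downstream start: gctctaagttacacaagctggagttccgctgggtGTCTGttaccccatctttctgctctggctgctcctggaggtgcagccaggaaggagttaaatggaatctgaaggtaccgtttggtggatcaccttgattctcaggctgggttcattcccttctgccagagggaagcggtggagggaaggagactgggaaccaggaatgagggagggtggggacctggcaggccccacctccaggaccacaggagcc
The upstream window held 3 GGGCGG and 1 CCAAT, the downstream window held 1 CAGAC, and neither held TATAAA. The array signal is a single value for the gene and does not separate the transcripts of the 2 starts.

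Col4a1 and Col4a2 encode the chains of the most widespread type IV collagen, the network-forming collagen of all basement membranes. In Col4a1, control mice had signals of 7.18, 7.20 and 7.29, DSS mice 7.93, 7.94 and 7.48, DSS+L-Arg mice 7.19, 7.34 and 7.13, and control+L-Arg mice 7.20, 7.18 and 7.57. DSS mice lay above all control and all DSS+L-Arg mice, while DSS mouse 3 fell below control+L-Arg mouse 3. Col4a1 was higher in DSS than in control by 0.56 (SE 0.14, limma adjusted p = 0.049). The difference was -0.56 between DSS+L-Arg and DSS (SE 0.14, limma adjusted p = 0.117), which did not pass, and the DSS+L-Arg and control means were both 7.22. The call in DSS versus control was lost without any one control mouse (adjusted p 0.122 to 0.146), DSS mouse 1 (0.0909) or 2 (0.143), any DSS+L-Arg mouse (0.0613 to 0.0714), or control+L-Arg mouse 1 (0.0657) or 2 (0.0543). It was kept without DSS mouse 3 (0.015), and without that mouse DSS+L-Arg versus DSS also passed, at -0.71 (adjusted p = 0.0317).

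Col4a2 had signals of 7.10, 7.06 and 7.27 in control, 7.95, 7.81 and 7.36 in DSS, 7.28, 7.66 and 7.19 in DSS+L-Arg and 7.29, 7.28 and 7.72 in control+L-Arg mice. Its DSS mice also lay above all control mice, by a mean of 0.57 (SE 0.18) that did not pass (limma adjusted p = 0.101). It passed in 3 of 23 alternatives, without DSS mouse 3 (0.74, adjusted p = 0.0393), with a smooth muscle covariate (0.89, adjusted p = 0.0221) and without DSS mouse 3, DSS+L-Arg mouse 2 and control+L-Arg mouse 3 together (0.74, adjusted p = 0.0111). Over the 12 mice the deviations of Col4a1 and Col4a2 from their group means had a Pearson correlation of 0.95. The median over all 946 pairs of collagen genes was 0.65. These values are a description of arrays that share processing and overall level, with the differences between the 4 groups removed. In RefSeq on GRCm38.p6 the pair is arranged head to head on chromosome 8, Col4a1 on the minus strand and Col4a2 on the plus strand, with starts 21 bases apart. The 300-base windows around their starts share 78 bases.

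The other type IV chains, Col4a3 to Col4a6, form the restricted networks of kidney, lung and muscle basement membranes, and their DSS versus control differences were between -0.01 and 0.05. Col15a1, whose product type XV collagen is related to type XVIII, had signals of 6.75, 6.78 and 6.69 in control, 7.14, 7.11 and 6.64 in DSS, 6.72, 6.64 and 6.71 in DSS+L-Arg and 6.60, 6.82 and 7.19 in control+L-Arg mice. DSS mouse 3 was below every control mouse, and the difference of 0.22 (SE 0.16) did not pass. The median over the 8 basement membrane genes was 0.14 in DSS versus control, with 7 of 8 above 0, beside a median of -0.01 over all genes. Restricted to the 6 type IV chains it was 0.04.

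**Figure D2:**
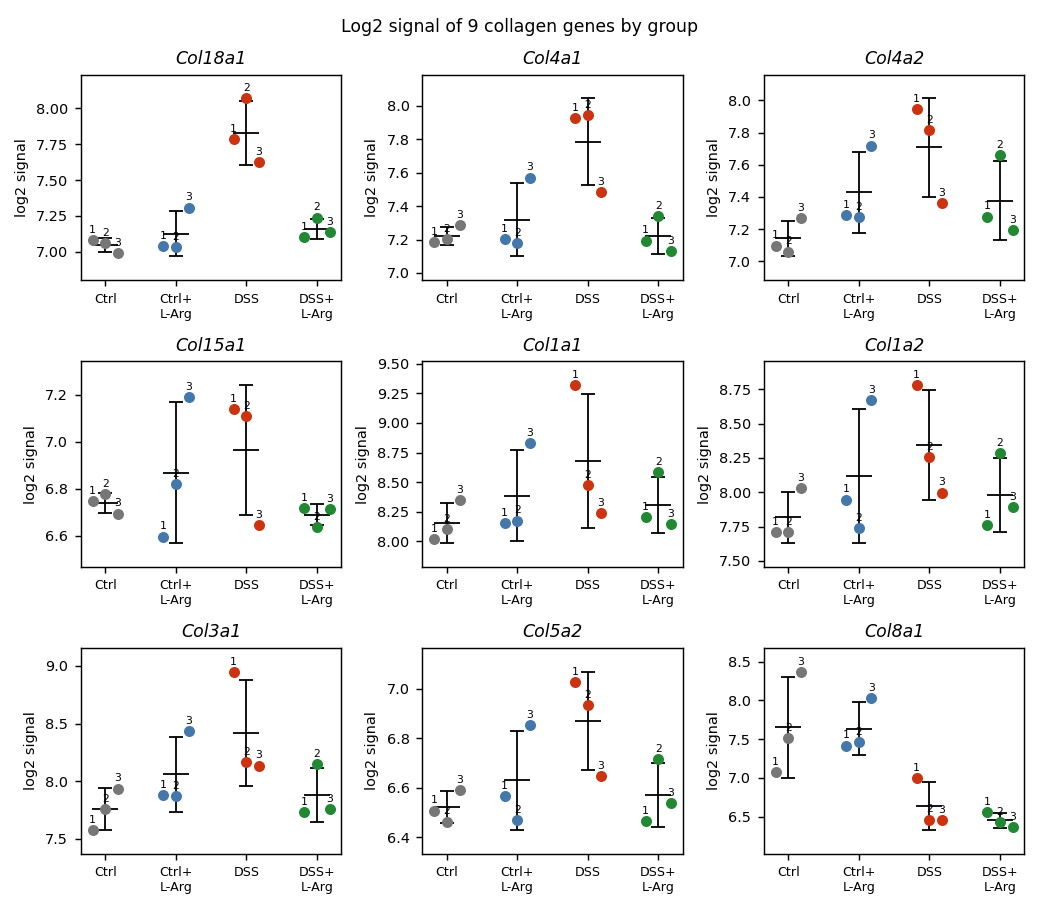
Log2 signal of 9 collagen genes in each mouse, by group (Ctrl, control), with the mouse number above each point and the mean and SD (n = 3) as bars. All DSS mice lie above the other mice in Col18a1, and the mice given DSS lie below the others in Col8a1, with axes that differ between genes.

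The fibrillar genes Col1a1, Col1a2 and Col3a1, which encode type I and type III collagen, the main fibrils of the gut wall, varied widely among the DSS mice. Col1a1 had signals of 8.02, 8.10 and 8.35 in control, 9.32, 8.47 and 8.24 in DSS, 8.21, 8.58 and 8.14 in DSS+L-Arg and 8.16, 8.18 and 8.83 in control+L-Arg mice. Col1a2 had signals of 7.71, 7.71 and 8.03 in control, 8.78, 8.25 and 8.00 in DSS, 7.76, 8.28 and 7.89 in DSS+L-Arg and 7.95, 7.74 and 8.67 in control+L-Arg mice. In both genes DSS mouse 1 was the highest of its group, and DSS mouse 3 fell within the control range. The DSS versus control difference was 0.52 (SE 0.26, limma adjusted p = 0.309) in Col1a1 and 0.53 (SE 0.25, adjusted p = 0.281) in Col1a2. Without DSS mouse 1, that of Col1a1 was 0.20.

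Col3a1 had signals of 7.58, 7.76 and 7.94 in control, 8.95, 8.16 and 8.14 in DSS, 7.73, 8.15 and 7.76 in DSS+L-Arg and 7.88, 7.87 and 8.44 in control+L-Arg mice. DSS and control mice did not overlap, and the difference of 0.66 (SE 0.23) did not pass (limma adjusted p = 0.134). Col5a2, a chain of the type V collagen that starts and thins type I fibrils, had signals of 6.51, 6.46 and 6.59 in control, 7.03, 6.93 and 6.65 in DSS, 6.46, 6.72 and 6.54 in DSS+L-Arg and 6.57, 6.47 and 6.85 in control+L-Arg mice. Here too DSS and control mice were apart, by a mean of 0.35 (SE 0.13, limma adjusted p = 0.152). In DSS+L-Arg versus DSS the differences were -0.54 in Col3a1 and -0.30 in Col5a2, with limma adjusted p = 0.339 for both.

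The other 7 fibrillar genes (Col2a1, Col5a1, Col5a3, Col11a1, Col11a2, Col24a1 and Col27a1) had DSS versus control differences between -0.10 and 0.21, none of which passed. The class had a median of 0.18 in DSS versus control, with 9 of 11 above 0, and of 0.02 in DSS+L-Arg versus DSS, where the median of all genes was 0.06. Col1a1 and Col1a2 encode chains that join in 1 molecule. Their deviations from the group means had a Pearson correlation of 0.94 over the 12 mice, and those of Col1a1 and Col3a1 of 0.98. The median over all 946 pairs of collagen genes was 0.65.

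Among the other collagens, Col8a1 encodes a chain of type VIII, a short collagen that forms hexagonal networks in vessel walls. The control mice had signals of 7.07, 7.51 and 8.37, the control+L-Arg mice 7.42, 7.47 and 8.03, the DSS mice 7.00, 6.46 and 6.46, and the DSS+L-Arg mice 6.56, 6.43 and 6.37. All 6 mice given DSS were below all 6 mice not given DSS. The difference was -1.01 (SE 0.28, limma adjusted p = 0.072) in DSS versus control and -1.20 (SE 0.28, limma adjusted p = 0.152) in DSS+L-Arg versus control, comparisons that share the control mice. Neither passed, although both met the criteria by which the study selected genes (unadjusted p below 0.01 with more than a 2-fold change) in limma, and the second also in SAM. DSS versus control passed without control mouse 1 (-1.30, adjusted p = 0.0485) or without DSS mouse 1 (-1.19, adjusted p = 0.0447). DSS+L-Arg and DSS differed by -0.19 in Col8a1, and its partner chain Col8a2 differed between DSS and control by -0.04.

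Col8a1 had the lowest DSS versus control difference of the 44 genes, so the 250 bases before its start on the minus strand, chr16:57754738-57754987, are shown for comparison with those of Col18a1, with the same motifs in capitals.
Col8a1: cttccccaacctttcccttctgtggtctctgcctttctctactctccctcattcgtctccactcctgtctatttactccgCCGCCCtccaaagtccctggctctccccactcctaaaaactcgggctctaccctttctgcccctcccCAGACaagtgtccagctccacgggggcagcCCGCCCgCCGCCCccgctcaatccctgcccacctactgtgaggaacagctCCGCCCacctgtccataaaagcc
The window held 4 GGGCGG and 1 CAGAC. RefSeq windows were found for 35 of the 44 genes, with 38 starts in all. GGGCGG was in 22 of the 38 windows (57.9%) and in 32.7% of the 32851 windows of all genes, CCAAT in 34.2% and 33.8%, CAGAC in 44.7% and 42.2%, and TATAAA in 13.2% and 12.4%. These are counts of letters, and binding was not measured.

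Type VI collagen forms beaded microfibrils between cells and fibrils. Its chain Col6a1 had signals of 7.68, 7.79 and 7.80 in control, 8.33, 8.33 and 7.80 in DSS, 7.49, 8.08 and 7.92 in DSS+L-Arg and 7.87, 7.84 and 8.58 in control+L-Arg mice, with a DSS versus control difference of 0.40 (SE 0.22). Col6a2 had 7.61, 7.63 and 7.57 in control, 8.01, 8.08 and 7.61 in DSS, 7.49, 7.90 and 7.60 in DSS+L-Arg and 7.72, 7.40 and 8.38 in control+L-Arg mice, with a difference of 0.30 (SE 0.22). Col6a3 had 7.11, 7.13 and 7.29 in control, 7.72, 7.25 and 7.05 in DSS, 7.06, 7.21 and 6.95 in DSS+L-Arg and 7.07, 7.05 and 7.76 in control+L-Arg mice, with a difference of 0.16 (SE 0.20). None of the 3 passed, and in each of them DSS mouse 3 was the lowest DSS mouse and control+L-Arg mouse 3 the highest of its group.

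Col7a1 forms the anchoring fibrils and Col17a1 the transmembrane collagen that fasten stratified epithelium to its basement membrane. Col7a1 had signals of 7.11, 7.11 and 7.06 in control, 7.12, 7.15 and 6.92 in DSS, 7.16, 7.35 and 7.14 in DSS+L-Arg and 6.90, 7.12 and 7.16 in control+L-Arg mice. Col17a1 had 6.28, 6.29 and 6.09 in control, 6.36, 6.29 and 6.16 in DSS, 6.20, 6.47 and 6.21 in DSS+L-Arg and 6.07, 6.37 and 6.31 in control+L-Arg mice. The groups overlapped in both genes except for DSS+L-Arg and control mice in Col7a1, and the DSS versus control differences of -0.03 in Col7a1 and 0.05 in Col17a1 changed sign when the arrays were rescaled (Col7a1) or 1 mouse was left out (both). Of the remaining members, Col20a1 and Col19a1 are named because of their values. Col20a1 had an unadjusted p of 0.0216 in DSS versus control with a difference of -0.24 (limma adjusted p = 0.166). Col19a1 had 5.93, 6.25 and 6.12 in DSS+L-Arg mice against 5.85, 5.84 and 5.71 in DSS mice, a difference of 0.30 (SE 0.10, limma adjusted p = 0.239). The members of the class not named here (Col6a4 to Col6a6 and types IX, X, XII to XIV, XVI, XXII, XXIII, XXV, XXVI and XXVIII) had differences between -0.18 and 0.20 in DSS versus control and between -0.43 and 0.22 in DSS+L-Arg versus DSS, none of which passed. The 25 other collagens had a median of 0.02 in DSS versus control and 0.10 in DSS+L-Arg versus DSS.

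In DSS+L-Arg versus DSS, 1 collagen gene was called lower (Col18a1), beside 0.522% of all genes, and 0 were called higher, beside 0.115% of all genes. At an unadjusted p under 0.05, 4 were lower by limma, beside 5.53% of all genes, and 1 was higher, beside 7.99%. By SAM, 4 passed at that threshold, beside 9.79% of all genes, and after adjustment no gene could be called, for the reason given above. Col18a1 and Col4a1 were the 2 genes in which all DSS+L-Arg mice lay below all DSS mice, beside 5.6% of all genes. In 4 others, Col4a6, Col11a2, Col19a1 and Col20a1, all DSS+L-Arg mice lay above all DSS mice. The share of all genes in that direction was not counted. The basement membrane median was -0.11 and became 0.08 for the type IV chains alone.

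In control+L-Arg versus control, 0 collagen genes were called, beside 0% of all genes, and 0 had an unadjusted p under 0.05 by limma, beside 3.44% of all genes, or by SAM, beside 4.83%. The differences ran from -0.12 to 0.34. In DSS+L-Arg versus control 0 were called, beside 0.0652% of all genes, and in DSS+L-Arg versus control+L-Arg 0 were called, beside 0.306% of all genes. In DSS+L-Arg versus control 36 of the 44 differences were above 0, beside 11214 of the 19938 genes. The medians were 0.16 (fibrillar), 0.12 (basement membrane) and 0.10 (other), beside 0.03 over all genes. At an unadjusted p under 0.05, 3 passed by limma in DSS+L-Arg versus control, beside 12.6% of all genes, and 3 by SAM, beside 15.5%. Against control+L-Arg, 3 passed by limma, beside 15.6%, and 3 by SAM, beside 14.2%.

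The effect of L-Arg with DSS minus that without DSS was called in 0 collagen genes, beside 0.0752% of all genes. At an unadjusted p under 0.05, 5 were lower, beside 4.19% of all genes, with values of -0.75 in Col18a1 (SE 0.17, limma adjusted p = 0.154), -0.66 in Col4a1 (adjusted p = 0.275), -0.62 in Col4a2 (adjusted p = 0.406), -0.84 in Col3a1 (adjusted p = 0.382) and -0.41 in Col5a2 (adjusted p = 0.442). SAM gave no value for this difference of differences.

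**Figure D3:**
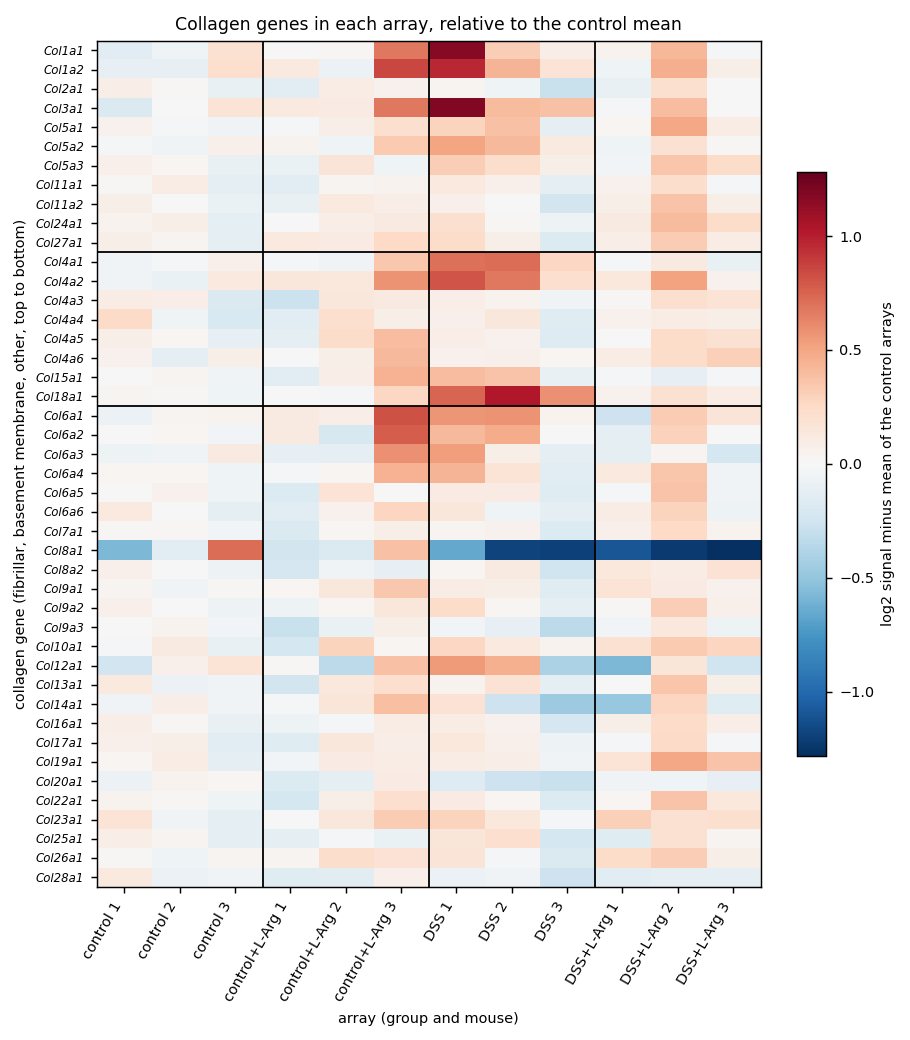
Log2 signal of the 44 collagen genes in each of the 12 arrays minus the mean of the control arrays, in red above and blue below it, with lines between groups and between the fibrillar, basement membrane and other genes. Col18a1, Col4a1 and Col4a2 are red in DSS mice and Col8a1 is blue in all mice given DSS, while control+L-Arg 3 is red and DSS 3 is bluer than the other DSS arrays.

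Several mice stood apart in most collagen genes at once. DSS mouse 3 was the lowest of its group in 44 of 44 collagen genes, beside 41.1% of all genes. DSS+L-Arg mouse 2 was the highest of its group in 37, beside 42.1% of all genes, and control+L-Arg mouse 3 in 32, beside 31.3%. Control+L-Arg mouse 1 was the lowest of its group in 33, beside 37.2%, and DSS mouse 1 the highest in 31, beside 33.4%. Of the 44 collagen genes, 24 were among the 9969 genes below the median level. The median of those 9969 relative to control was 0.13 in DSS+L-Arg mouse 2, beside 0.04 and 0.04 in its group. It was -0.05 in DSS mouse 3, beside 0.03 and 0.01, and -0.05 in control+L-Arg mouse 1, beside 0.05 and 0.06. The part of such array shifts in the counts was not tested. Without DSS mouse 3, DSS+L-Arg mouse 2 and control+L-Arg mouse 3, a choice made after seeing the data, 4 collagen genes were called higher in DSS versus control, beside 1.19% of all genes, namely Col18a1 (0.88), Col4a1 (0.71), Col4a2 (0.74) and Col5a2 (0.46), and 2 were called lower in DSS+L-Arg versus DSS, beside 0.331% of all genes, Col18a1 (-0.81) and Col4a1 (-0.77).

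The proportions of cell types in the pieces could move with these values, and in bulk tissue fewer cells of a type and less RNA per cell cannot be told apart. Epcam, Cdx2 and Krt20, markers of colon epithelium, had a lowest signal of 11.4 over the 12 arrays. Of 12 smooth muscle markers 0 were called in DSS versus control, with a median difference of -0.92. Their median relative to control was -0.66, -0.74 and -1.32 in the DSS mice and -1.06, -0.27 and -0.92 in the DSS+L-Arg mice, and it was 0.71 in control mouse 3 and 1.08 in control+L-Arg mouse 3. Control mouse 3, control+L-Arg mouse 3 and DSS mouse 1 were the highest of their groups in this median and in Col8a1. In the DSS+L-Arg group the order differed, since mouse 1 was the lowest in the median (-1.06) and the highest in Col8a1 (6.56). Control+L-Arg mouse 3 was the highest of its group in 32 of the 44 collagen genes. With the smooth muscle level as a covariate, the Col8a1 difference in DSS versus control was -0.54 (limma adjusted p = 0.426), and 5 collagen genes were called higher, beside 1.22% of all genes, Col18a1, Col4a1, Col4a2, Col5a2 and Col1a2.

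Of 13 endothelial markers 0 were called, with a median of 0.44 in DSS versus control and -0.46 in DSS+L-Arg versus DSS, and their median relative to control was 0.64, 0.61 and 0.05 in the DSS mice. DSS mouse 3 was the lowest of its group in this median and in the fibroblast and smooth muscle medians. It was the lowest in 44 of 44 collagen genes, beside 41.1% of all genes. In the pericyte median DSS mouse 1 was the lowest of its group (0.05). Of 14 fibroblast markers 1 was called higher in DSS (Pdgfra, a receptor of stromal cells, 1.34, limma adjusted p = 0.0409), with a list median of 0.24. Macrophage markers were called higher in 5 of 8 and neutrophil markers in 5 of 7, with medians of 1.44 and 2.37. Their medians in DSS+L-Arg versus DSS were -1.04 and -1.97, with 2 of 8 and 2 of 7 called lower. The part of these lists in the collagen values was not tested. The smooth muscle medians lay below the control mean in every mouse given DSS. They also did in control mice 1 (-0.29) and 2 (-0.42) and in control+L-Arg mouse 2 (-0.69). The smooth muscle level and DSS thus went partly together, and the covariate fit does not tell their parts apart. The 6 pericyte, 13 colon epithelium and 7 squamous epithelium markers had 0 called and medians of 0.10, 0.04 and 0.04, and the 6 adipocyte, 6 enteric glia and 5 mesothelium markers measured had 0 called and medians of -0.40, -0.11 and -0.14. Of 8 skeletal muscle markers 1 was called lower (Myl1, -0.87).

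**Figure D4:**
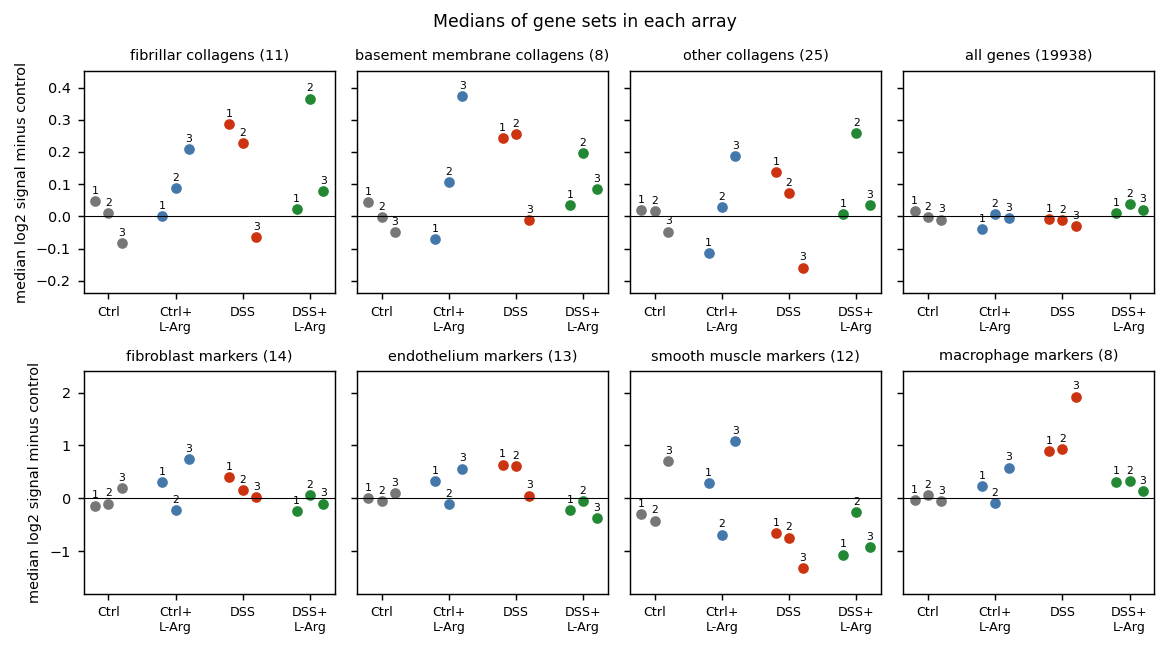
Median log2 signal of gene sets in each mouse minus the mean of the control mice, by group (Ctrl, control), with the mouse number above each point and the number of genes in each title. The upper and lower rows have different vertical scales. DSS mouse 3 is the lowest DSS mouse in all 3 collagen classes and in the fibroblast, smooth muscle and endothelial markers, and the highest in the macrophage markers.

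Other genes of collagen biology were read from 5 lists. Of 30 measured enzymes and chaperones that process collagen, 1 was called higher in DSS versus control and 1 lower, with a median of 0.03. Lox, the lysyl oxidase that cross-links fibrils, was higher by 2.07 (SE 0.27, limma adjusted p = 0.00291), and Plod1, a lysyl hydroxylase, was lower with a difference of -0.78 (SE 0.11, limma adjusted p = 0.00417). In DSS+L-Arg versus DSS, Lox differed by -1.64 and Bmp1, the proteinase that trims procollagen ends, by -0.70, and both were called lower (limma adjusted p = 0.0287 and 0.0359).

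Of 17 matrix proteins that sit on fibrils, 4 were called higher in DSS versus control, the small proteoglycan Dcn (1.54), the tenascin Tnc (1.73), the thrombospondin Thbs1 (1.31) and Tgfbi (1.31), with a list median of 0.29. Dcn (-1.37), Thbs1 (-1.82) and Tgfbi (-1.59) were then called lower in DSS+L-Arg versus DSS. Of 18 measured partners of the basement membrane, 1 was called, the laminin chain Lamc1, higher by 0.72 in DSS (limma adjusted p = 0.0462) and lower with -0.91 in DSS+L-Arg versus DSS (limma adjusted p = 0.0489). The list median was 0.06 in DSS versus control.

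Of 12 measured collagen receptors, 1 was called, Mrc1, the mannose receptor of macrophages that also takes up collagen, at 1.34 in DSS versus control and -1.33 in DSS+L-Arg versus DSS. Of 7 proteases that cut collagen, 5 were called higher in DSS, the collagenases Mmp13 (5.09) and Mmp8 (3.55), the gelatinases Mmp9 (2.21) and Mmp2 (1.65), and the membrane-bound Mmp14 (0.73). Mmp13 (-3.77) and Mmp8 (-3.31) were called lower in DSS+L-Arg versus DSS. The list median was 1.65 in DSS versus control, beside 0.04 for the 44 collagen genes.

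Genes with the signals most like those of the collagens over the 12 mice were named as a description. For the mean of the 11 fibrillar genes these were Siglec1, a macrophage lectin (Pearson correlation 0.92), and 9430097D07Rik, Stk-ps2 and Pced1b (0.91 each). Vwa1, a matrix protein, followed (0.90). For Col18a1, a reference chosen after its values were seen, they began with the proteoglycan-cleaving protease Adamts4 (0.995) and the macrophage scavenger receptor Cd163 (0.98). Pi15, Lox and Medag followed (0.97 each).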

How the data were processed

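Colon RNA of 12 mice was hybridised to Affymetrix whole-transcript arrays, 1 array per mouse and 3 mice per group, with groups from the labels. Per the submitters' processing notes the authors used Affymetrix Expression Console 1.1 with RMA (background correction, quantile normalization, probe set summary) and build mm9, and the deposited values are log2 signals. A shift shared by most genes would not show after quantile normalization. Of 35556 probe sets, 21789 had 1 gene, and 1621 with several genes and 12146 unnamed were left out.

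A linear model with a mean for each of the 4 groups was fitted to the 12 arrays for 19938 genes (limma 3.58.1, R 4.3.3), which left 8 residual degrees of freedom beside 3.37 of the prior, and the code was tested on simulated data. Tables and plots used Python 3.11.15, pandas 2.3.3 and matplotlib 3.10.9. Mice of a group differed by over 0.01 in at least 95.1% of genes, so no array was a repeat. Members, classes and lists were chosen with earlier results of these data known. Values in every array are given for members called, for 11 collagens chosen for their roles and for the 3 members per class with the largest DSS versus control difference, and ranges for the rest. Alternatives were the compared groups only, the mouse number as a block, 2 rescalings, a filter on dim genes, other probe set and prior settings, a smooth muscle covariate, SAM, the study's thresholds and each array left out. Promoter windows and starts come from RefSeq on GRCm38.p6, and protein sequences were not used here.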

Additional observations from a re-analysis of the deposited data

How the results depend on the processing

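The fold changes of Col18a1 in DSS versus control stayed between 0.66 and 0.90 over 23 alternatives and passed in 21 of them, and those of Col4a1 stayed between 0.48 and 0.79 and passed in 8. Col18a1 in DSS+L-Arg versus DSS passed in 11 of 23. The smooth muscle covariate gave 5 collagen genes higher in DSS versus control, beside 243 of the 19938 genes. In DSS+L-Arg versus DSS it gave 2 lower, beside 228 of all genes, and in DSS versus control+L-Arg 0 called. It moved the basement membrane median in DSS versus control to 0.28. With only the compared groups in the fit, 0 were higher in DSS versus control, beside 87 of all genes. There 0 were lower in DSS+L-Arg versus DSS, beside 26 of all genes, and 0 called in DSS versus control+L-Arg. The same counts were 0 with SAM or limma at the thresholds of the study, which need more than a 2-fold change. No collagen gene changed by that much in these directions (Col18a1 by 1.72-fold in DSS versus control), so the cutoff alone fixed these counts. Beside them, 181 (SAM) and 263 (limma) of all genes were higher in DSS versus control. In DSS+L-Arg versus DSS 140 and 168 were lower. In DSS+L-Arg versus control+L-Arg these 3 settings called 1, which in limma at those thresholds was Col8a1, beside 86 of all genes lower. In DSS+L-Arg versus control SAM and limma at those thresholds called 1 (Col8a1), in limma beside 50 of all genes lower. In DSS versus control, limma at those thresholds called 1 lower (Col8a1), beside 162 of all genes. Further quantile normalization left 1 higher in DSS versus control, beside 433 of all genes, and 0 lower in DSS+L-Arg versus DSS, beside 101. The trended and robust prior left 1 higher in DSS versus control, beside 339 of all genes. The filter on dim genes, which kept 41 of 44 collagen genes, moved the basement membrane median in DSS+L-Arg versus DSS to -0.27, and type IV chains alone gave 0.082.

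Leaving out each array in turn gave 1 to 3 genes higher in DSS versus control, beside 110 to 653 of all genes. The 3 came without DSS mouse 3, beside 323 of all genes. In the same comparison 0 to 1 were lower, beside 87 to 745 of all genes. In DSS+L-Arg versus DSS 0 to 2 were lower, beside 17 to 208 of all genes. In DSS versus control+L-Arg 0 to 2 were called, and all genes were not counted there. The basement membrane median in DSS+L-Arg versus DSS was -0.23 (without DSS mouse 3) to -0.046 (without DSS mouse 2). Without DSS mouse 3, DSS+L-Arg mouse 2 and control+L-Arg mouse 3 together, chosen after seeing the data, the counts were 4 higher in DSS versus control, 2 lower in DSS+L-Arg versus DSS and 2 called in DSS versus control+L-Arg, and the DSS+L-Arg versus DSS medians became -0.17 (fibrillar) and -0.065 (other). Centring on the median of the dimmer genes was also added after seeing the data.

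Differences near 0 changed sign. Col7a1 in DSS versus control became 0.0022 with arrays centred on medians, 0.0094 with quantile normalization, 0.029 with the smooth muscle covariate and 0.046 without the 3 mice, and with each array left out it ran from -0.070 to 0.046 (without DSS mouse 3). Col6a3 ran from -0.024 (without DSS mouse 1) to 0.31, and Col17a1 from -0.019 (without control mouse 3) to 0.10. In DSS+L-Arg versus DSS, Col17a1 became -0.015 with quantile normalization, -0.12 without the 3 mice and -0.042 centred on the dimmer genes, and ran from -0.063 (without DSS+L-Arg mouse 2) to 0.070 with each array left out, below 0 also without DSS mouse 3 (-0.032). The cause of these changes was not tested.

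With the mouse number as a replicate block, 1 collagen gene was higher in DSS versus control (Col4a1 limma adjusted p = 0.0802), beside 340 of all genes. In DSS+L-Arg versus DSS 0 were lower (Col18a1 limma adjusted p = 0.0553), beside 94 of all genes. Deviations of same-numbered mice correlated above 0.1 in 7 of 18 pairs (-0.355 to 0.478), in 0 of 3 for DSS and control, 0 of 3 for DSS+L-Arg and DSS, and 3 of 3 for control and control+L-Arg, where the block called 0 collagen genes as without it. The numbers were not taken to pair the mice of the first 2 comparisons. The difference of the L-Arg effects has no value in SAM or with the compared groups only. The number of mice and the closeness of several adjusted p-values to 0.05 limit each call.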
